A study of Homo sapiens with 24 samples.

Results

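Mitochondrial ribosomal proteins are the nuclear-encoded proteins that, with 2 ribosomal RNAs made in the organelle, build the ribosome inside mitochondria. Their genes were taken as the rows of the deposited table whose symbol begins with MRPL or MRPS followed by a number and at most a letter A to C, which left out pseudogenes. This gave 78 genes of the 60564 rows, 49 with an MRPL symbol (large subunit) and 29 with an MRPS symbol (small subunit). The 78 members lay on 21 chromosomes, with at most 8 on any one, and all 78 passed the filter for testing (1 FPKM or more in 3 or more of 24 libraries, FPKM being fragments per kilobase of transcript, scaled to the mapped fragments of the library). The values were read in 2 human neuroblastoma lines, SK-N-BE(2) and SH-SY5Y, transduced with lentivirus and selected with puromycin. In each line, cells with short hairpin RNA against NDUFS6 (knockdown) were set against cells with the empty vector of that construct, and cells with the NDUFS6 coding sequence (overexpression) against cells with the empty vector of theirs, with 3 libraries in each of the 8 groups. NDUFS6 is a nuclear-encoded accessory protein of respiratory complex I. Each group was a stable, selected cell population. Neither the number of hairpins or integrations nor a separate hairpin or rescue is given in the labels, and the control groups carried lentivirus and puromycin resistance as well.

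The mitochondrial ribosome translates only the messages that remained in mitochondrial DNA, all of which code for core subunits of the respiratory chain and ATP synthase. Some of its proteins descend from those of bacterial ribosomes, and others were gained in the mitochondrial lineage and partly take the place of lost ribosomal RNA. Its promoters are known as targets of the nuclear respiratory factors NRF1 and GABPA (NRF2) and of YY1. A pair of symbols do not match the present place of the protein, since MRPS30 and MRPS18A are known from structures to sit in the large subunit. MRPS36 is known as a component of the oxoglutarate dehydrogenase complex. These members are kept by symbol in the counts of each subunit.

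Windows from 250 bases before to 50 bases after the start of transcription (RefSeq, GRCh38.p14) were held for 69 of the 78 members. The shortest core of the ETS family site bound by GABPA (CCGGAAG, on either strand) stood in 42.0% of the member windows and in 14.2% of 15843 windows of protein-coding genes. The YY1 core (ATGGCGG) stood in 34.8% of the member windows and 7.63% of those of protein-coding genes, and the NRF1 half-site (TGCGCA) in 20.3% and 10.8%. None of these 3 was found in 24.6% of member windows, against 72.2% of the windows of protein-coding genes, and 21.7% of member windows held a pair of them, against 4.17%. The E-box bound by the MYC family (CACGTG) was in 8.70% of member windows and 8.88% of those of protein-coding genes, the GC box (GGGCGG) in 60.9% and 58.5%, the CCAAT box in 28.99% and 36.4%, and the TATA box (TATAAA) in 2.90% and 9.63%. These shares describe letters in a fixed window, not occupied sites.

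**Figure D1:**
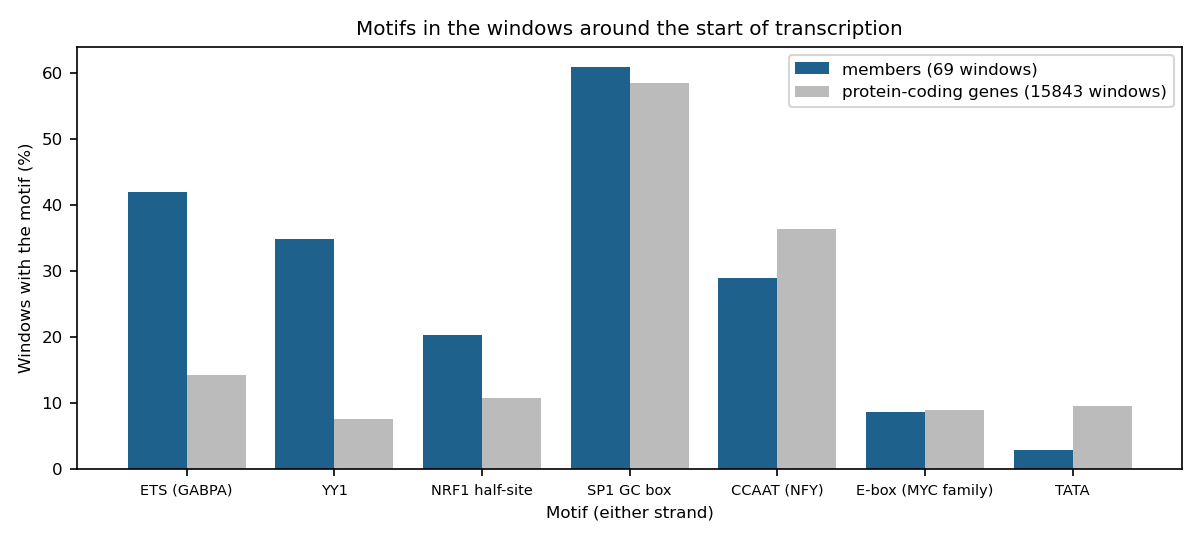
Share of windows around the start of transcription (y axis, percent) that hold each motif (x axis) on either strand, for the 69 members with a window (blue) and 15843 protein-coding genes (grey). The ETS core is in 42.0% of member windows against 14.2%, and the YY1 core in 34.8% against 7.63%.

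The windows of the members with the largest called fall of each subunit, and the largest called rise, in SK-N-BE(2) knockdown are printed to show how these cores lie. Capitals mark ETS and YY1 cores, on either strand. MRPL53 (chr2:74472631-74472930, minus strand) and MRPS34 (chr16:1773085-1773384, minus strand) fell in that comparison, and MRPL37 (chr1:54199917-54200216, plus strand) rose.
MRPL53: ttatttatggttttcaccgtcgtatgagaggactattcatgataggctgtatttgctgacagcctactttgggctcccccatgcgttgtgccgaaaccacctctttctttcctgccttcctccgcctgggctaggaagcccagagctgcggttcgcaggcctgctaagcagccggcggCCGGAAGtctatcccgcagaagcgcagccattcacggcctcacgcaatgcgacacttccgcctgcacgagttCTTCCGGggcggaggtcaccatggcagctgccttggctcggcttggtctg
MRPS34: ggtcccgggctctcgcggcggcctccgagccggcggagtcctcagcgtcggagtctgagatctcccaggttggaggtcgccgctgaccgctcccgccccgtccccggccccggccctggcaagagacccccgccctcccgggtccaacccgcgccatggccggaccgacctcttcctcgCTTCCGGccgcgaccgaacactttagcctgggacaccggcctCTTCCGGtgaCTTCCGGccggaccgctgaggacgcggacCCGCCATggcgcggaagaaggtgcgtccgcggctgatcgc
MRPL37: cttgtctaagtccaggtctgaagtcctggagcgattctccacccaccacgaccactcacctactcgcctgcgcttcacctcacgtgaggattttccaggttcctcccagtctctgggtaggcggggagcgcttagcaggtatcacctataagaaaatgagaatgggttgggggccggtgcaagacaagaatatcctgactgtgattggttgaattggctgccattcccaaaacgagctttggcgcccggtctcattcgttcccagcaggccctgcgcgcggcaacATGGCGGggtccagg
The MRPS34 window held 3 ETS cores, beginning 71, 29 and 19 bases before the start of transcription, and a YY1 core that begins at base 11 of the transcript. The MRPL53 window held an ETS core 72 bases before the start and another that begins at base 1. The MRPL37 window held a YY1 core beginning at base 36 and no ETS core. Among members lower in SK-N-BE(2) knockdown, 14 of 24 with a window held the ETS core and 3 of 24 the YY1 core, and among those higher, 2 of 9 held the ETS core and 6 of 9 the YY1 core. That contrast was seen after the values and is given as a count only.

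The targeted gene followed the labels. NDUFS6 averaged 1.33 ± 0.261 FPKM in SK-N-BE(2) knockdown cells and 11.2 ± 1.63 in their controls (SD, n = 3 each here and throughout), and 4.02 ± 0.939 in SH-SY5Y knockdown cells and 11.5 ± 0.566 in theirs. It averaged 208.0 ± 7.74 FPKM in SH-SY5Y overexpressing cells and 11.0 ± 0.679 in controls, but only 17.2 ± 2.07 in SK-N-BE(2) overexpressing cells and 12.8 ± 1.03 in controls (log2 change 0.39, limma adjusted p = 0.0170). Of 8 adrenergic neuroblastoma markers, 8 in SK-N-BE(2) and 7 in SH-SY5Y averaged at least 1 FPKM in every group, TH being the exception. Since the table holds no counts, depth per library is unknown. The SK-N-BE(2) overexpressing libraries stood apart from each other, with an SD of the log2 difference between them of up to 0.323, against at most 0.244 in the other groups. In bulk RNA, fewer cells of a kind and less RNA per cell cannot be told apart.

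Members differed widely in level. Mean FPKM over the 24 libraries had a median of 11.0 in the large subunit and 9.10 in the small subunit. The highest in the large subunit were MRPL12, the stalk protein that recruits translation factors and is known to bind the mitochondrial RNA polymerase, at 54.8, MRPL51 at 45.4, MRPL3, a core protein near the peptidyl transferase centre, at 41.4, and MRPL9 at 30.5 FPKM. In the small subunit they were MRPS21 at 57.8, MRPS34 at 32.0, MRPS35 at 26.6 and MRPS16 at 25.9 FPKM. The lowest were MRPL46 at 1.90, MRPL22 at 3.73, MRPL52 at 5.33 and MRPL13 at 5.40 FPKM in the large subunit, and MRPS18C at 3.25, MRPS11 at 3.43, MRPS12, the protein of the decoding centre, at 3.603 and MRPS6 at 3.73 FPKM in the small. Each member averaged more than 1 FPKM. FPKM is scaled to length, so these levels can be set beside each other, although 30 members have pseudogene rows (67 rows) and 16 overlap exons of a same-strand neighbour, and the authors' counting could have split reads between them.

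Summed over its members, the large subunit came to 703 ± 49.1 FPKM in SK-N-BE(2) knockdown cells and 756 ± 6.61 in their controls, and the small subunit to 375 ± 25.5 in knockdown cells and 391.9 ± 5.11 in controls. In SH-SY5Y the sums were 620.0 ± 24.8 in knockdown cells and 628 ± 7.06 in controls for the large subunit, and 356 ± 10.2 in knockdown cells and 359.6 ± 5.02 in controls for the small. Knockdown and control libraries overlapped in all 4 sums. In SH-SY5Y overexpressing cells the large subunit summed to 767 ± 37.9 FPKM, against 696 ± 5.22 in controls, and the small subunit to 416 ± 20.2, against 389 ± 4.32, with no overlap. The SK-N-BE(2) overexpressing libraries spread from 752 to 944 FPKM in the large subunit, against 729 to 805 in controls, and from 409 to 494 in the small subunit, against 383 to 412. Their lowest library lay within the control range.

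**Figure D2:**
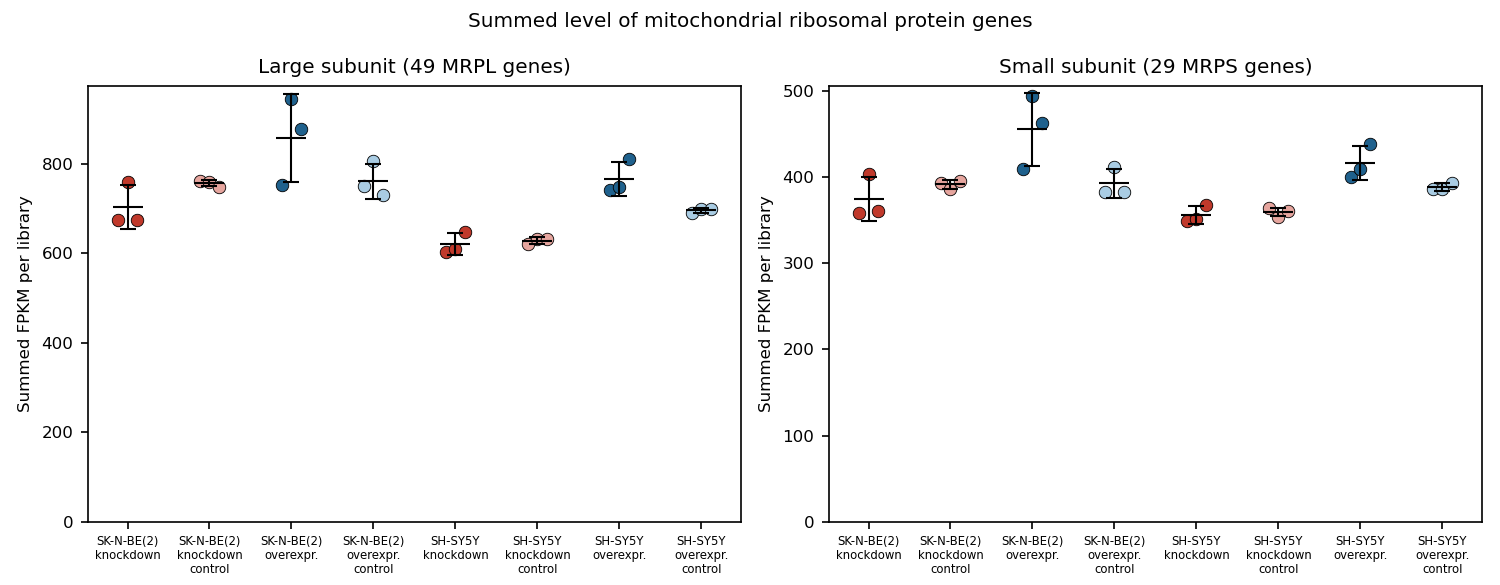
Summed FPKM per library (y axis) of the 49 MRPL genes (left) and the 29 MRPS genes (right) in each group (x axis), with points for libraries and bars for mean and SD. The 3 SH-SY5Y overexpressing libraries lie above their controls in both panels, and the SK-N-BE(2) overexpressing libraries spread from 752 to 944 FPKM for the large subunit.

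Knockdown in SK-N-BE(2) was set against its empty vector to see which members change when NDUFS6 is reduced in this MYCN-amplified line. Of the 78 members, 27 fell and 11 rose at a limma adjusted p under 0.05. Of all tested genes, 28.3% fell and 27.4% rose, and 55.7% were called in either direction. Falls were 34.6% and rises 14.1% of the members. Among genes averaging at least 5 FPKM, 24 of 71 members fell and 10 rose, against 35% and 32.1% of all such genes. With each library rescaled to the same sum, 17 members fell (21.6% of all genes) and 24 rose (33.5%), and against the other SK-N-BE(2) empty vector 19 fell (25.2%) and 5 rose (22.5%). The median log2 change was -0.08, against -0.01 over all tested genes. In the large subunit 18 fell and 6 rose, and in the small subunit 9 fell and 5 rose. Knockdown libraries lay wholly below controls for 25 members (31.8% of all genes) and wholly above for 14 (30.3%). In separate lists, of 29 large subunit proteins with bacterial relatives 11 fell and 3 rose, and of 21 specific to mitochondria 7 fell and 3 rose. These lists do not follow the symbols, so together they are not the large subunit counted above. No member changed by more than 0.67 on the log2 scale.

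The small subunit protein MRPS34 (chr16:1771890-1773155, GENCODE release 29), a mitochondria-specific protein needed for small subunit stability, held 23.7, 30.5 and 23.8 FPKM in SK-N-BE(2) knockdown libraries and 41.5, 38.1 and 41.3 in control libraries. All knockdown libraries lay below all controls, and the log2 change was -0.62 (SE 0.10, limma adjusted p = 2.49e-05). MRPL23 (chr11:1947278-1984522), which sits by the exit of the peptide tunnel, held 6.25, 8.34 and 6.55 FPKM in knockdown libraries and 12.2, 10.7 and 10.4 in controls. The groups did not overlap, and the log2 change was -0.59 (SE 0.12, limma adjusted p = 0.000205); the antisense gene MRPL23-AS1 overlaps its exons, and the counting strand is not stated. MRPS12 fell by 0.55, MRPS6 by 0.47, MRPS7 by 0.44, MRPS28 by 0.41 and MRPS33 by 0.35 on the log2 scale, MRPS7 being a protein of the head known to be needed for assembly. MRPS16, known for disease variants, fell by 0.28. In the large subunit, MRPL51 and MRPL33 fell by 0.43 each, MRPL27 by 0.42 and the stalk protein MRPL12 by 0.39. MRPL11, at the base of the stalk, fell by 0.37, and MRPL10, which holds MRPL12 on the ribosome, had a log2 change of 0.00 (limma adjusted p = 0.986). MRPL53 had the largest fitted fall (-0.67, SE 0.28, limma adjusted p = 0.0487), with 6.08, 6.64 and 6.43 FPKM in knockdown libraries and 14.4, 11.5 and 7.33 in controls. The lowest control library lay close to the knockdown libraries, and the call was lost without any 1 of 5 of the 6 libraries; without control library 1 the change was -0.47.

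Among the risers, MRPL37 (chr1:54184041-54225464), a mitochondria-specific large subunit protein, held 28.9, 28.2 and 27.8 FPKM in SK-N-BE(2) knockdown libraries and 21.1, 19.3 and 21.1 in controls. Every knockdown library was higher, and the log2 change was 0.45 (SE 0.06, limma adjusted p = 4.31e-06). MRPS36 held 10.3, 10.6 and 9.48 FPKM in knockdown libraries and 7.87, 7.06 and 7.79 in controls, again without overlap (log2 change 0.38, SE 0.11, limma adjusted p = 0.00546). MRPL46 rose by 0.33, MRPS35 by 0.30, MRPS22, another disease gene, by 0.30, MRPL49 by 0.29, MRPS27, a protein with pentatricopeptide repeats, by 0.28, and MRPL21, MRPL22 and MRPS9 by 0.27 each, with MRPL47 at 0.23. The membrane-facing protein MRPL45 fell by 0.21, and MRPL44, an RNase III-like protein, had a log2 change of 0.06 and MRPL58, a peptidyl-tRNA hydrolase that became a ribosomal protein, of 0.18, neither of them called. Leaving out 1 library ended the calls of MRPL22 (0.19 without knockdown library 2), MRPL47 (0.17 without knockdown library 2), MRPS9 (0.21 without control library 2) and MRPL11 (-0.28 without knockdown library 3). Against the other SK-N-BE(2) empty vector MRPL37 was at 0.09, MRPL46 at 0.07, MRPL22 at 0.06, MRPL47 at 0.03, MRPL21 at 0.00, MRPL49 at -0.04 and MRPS9 at -0.17. The calls of MRPS35 (0.16), MRPS12 (-0.31), MRPS28 (-0.20), MRPS7 (-0.15), MRPL12 (-0.10) and MRPL45 (-0.04) were lost too.

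Other measures moved with this comparison. Genes of mitochondrial DNA took 27.8 ± 0.399% of all FPKM in SK-N-BE(2) knockdown libraries and 33.8 ± 0.223% in controls, but 28.7 ± 0.502% with the other empty vector. The higher share of all calls was 60.9% with equal library sums, against 49.3% as deposited. The members' log2 change had a Spearman correlation of 0.43 with coding length (n = 78 genes, which share their libraries), against 0.00 over 12329 genes. With transcript length the correlation was only 0.11 over the members and 0.00 over all of these genes. The coding length had a median of 540 bases in members that fell and 837 in members that rose. Adrenergic markers (8 of 8 at 1 FPKM or more) summed to 344 to 448 FPKM in knockdown libraries and 679 to 697 in controls. With the other empty vector they summed to 911 to 1000 FPKM. Stromal markers (6 of 6 at 1 FPKM or more in both) summed to 154 to 178 FPKM in knockdown libraries and 134 to 141 in controls. The other empty vector, at 167 to 175 FPKM, lay within the range of the knockdown libraries. MYCN averaged 522 ± 88.7 FPKM in knockdown cells and 1102 ± 1.79 in controls. The part of each in the members' changes was not tested.

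In SH-SY5Y, which has no MYCN amplification, knockdown gave 20 members lower and 14 higher (25.6% and 17.9% of members), where 29.6% of all tested genes fell, 26.3% rose and 56% were called in either direction. Of the 71 members averaging at least 5 FPKM, 18 fell and 13 rose, against 33.8% and 29.8% of all genes at that level. The median log2 change was -0.02, against -0.01 over all genes. The large subunit had 13 lower and 8 higher and the small subunit 7 lower and 6 higher. Knockdown libraries lay wholly below controls for 19 members (34% of all genes) and wholly above for 20 (30.5%). Without knockdown library 2, 13 members fell and 11 rose (27.9% and 24.4% of all genes). Without control library 1, 13 fell and 12 rose (28% and 24.1%).

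MRPL42 (chr12:93467488-93516213), a mitochondria-specific large subunit protein, held 4.86, 4.61 and 4.75 FPKM in SH-SY5Y knockdown libraries and 7.52, 6.91 and 7.62 in controls. The groups lay far apart, with a log2 change of -0.54 (SE 0.04, limma adjusted p = 1.24e-09), although 4 pseudogene rows could share its reads. MRPS34 fell here too, with 19.3, 20.4 and 22.3 FPKM in knockdown libraries and 26.5, 29.2 and 29.8 in controls (log2 change -0.45, SE 0.10, limma adjusted p = 0.000745). Its groups did not overlap. MRPS30, which sits in the large subunit, fell by 0.43, MRPS9 by 0.36, MRPL19 by 0.35, MRPL39 by 0.33, MRPL10 and MRPS26 by 0.32 each, MRPL41 by 0.29, MRPL50 by 0.28, MRPS25 by 0.24 and MRPS5 by 0.22 on the log2 scale. MRPL44 fell by 0.24. MRPL49 (chr11:65122183-65127371), a mitochondria-specific large subunit protein, held 14.4, 15.3 and 15.6 FPKM in knockdown libraries and 10.3, 10.1 and 10.6 in controls. Each knockdown library was higher, with a log2 change of 0.51 (SE 0.07, limma adjusted p = 2.05e-06), and FAU, a cytosolic ribosomal protein gene, overlaps its exons on the other strand.

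MRPL52 rose by 0.39, MRPS11 by 0.33, MRPL15 and MRPL46 by 0.32 each, MRPL45 by 0.27, MRPS35 by 0.27, MRPL20 by 0.25 and MRPS16 by 0.18 in SH-SY5Y knockdown cells. The 3 human relatives of bacterial S18 were all higher: MRPS18B and MRPS18C, both small subunit proteins, rose by 0.30 each, and MRPS18A, which sits in the large subunit, rose by 0.27. In SK-N-BE(2) knockdown cells their log2 changes were -0.01, -0.08 and 0.15, none of them called, and the difference between lines passed the test for MRPS18B (limma adjusted p = 0.0104) and MRPS18C (limma adjusted p = 0.0192), not for MRPS18A (limma adjusted p = 0.524). Leaving out 1 library ended the calls of MRPS18A (0.20 without knockdown library 1), MRPS18C (0.23 without control library 2), MRPL39 (-0.23 without knockdown library 1), MRPL20 (0.18 without knockdown library 2), MRPL41 (-0.24 without knockdown library 1), MRPL44 (-0.18 without knockdown library 2), MRPS25 (-0.18 without knockdown library 3), MRPS26 (-0.28 without knockdown library 1) and MRPS16 (0.16 without control library 2). Against the other SH-SY5Y empty vector 27 members fell (31.7% of all genes) and 7 rose (26.5%), with MRPL15 (-0.06), MRPL20 (-0.17), MRPS11 (-0.01) and MRPS16 (-0.02) then below 0 and MRPS5 (0.05) above it. The calls of MRPS18C (0.06), MRPS18A (0.23), MRPL46 (0.12), MRPL45 (0.09), MRPL10 (-0.05), MRPL41 (-0.07), MRPL39 (-0.17) and MRPL44 (-0.16) were lost as well. Mitochondrial DNA genes took 37.0 ± 0.967% of FPKM in knockdown libraries and 31.1 ± 0.305% in controls. With equal library sums 9 members were higher and 27 lower (20% and 36.2% of all genes), the higher share of all calls being 35.6%, against 47.0%. Stromal markers (6 of 6 at 1 FPKM or more in knockdown cells, 5 of 6 in controls) summed to 243 to 254 FPKM in knockdown libraries and 107 to 111 in controls. Immune markers (1 of 5, CD68, in both) summed to 8.63 to 11.7 FPKM in knockdown libraries and 1.80 to 2.32 in controls, with PTPRC under 1 FPKM in both. Adrenergic markers summed to 601 to 624 FPKM in knockdown libraries and 803 to 813 in controls. The part of these in the members' changes was not tested.

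The change on knockdown differed between the lines for 38 members, 16 higher and 22 lower in SK-N-BE(2) than in SH-SY5Y, where 29.5% of all genes were higher and 26.3% lower (55.8% in either direction). The balance turned with each library rescaled to the same sum, where 32 members were higher and 11 lower (39.6% and 17.3% of all genes), and the median difference over all genes was then 0.16, against 0.01 as deposited. The members with the smallest p were MRPL42 (difference of log2 changes 0.49, limma adjusted p = 9.50e-07), MRPL37 (0.62, limma adjusted p = 5.88e-06), MRPL45 (-0.47, limma adjusted p = 3.88e-05), MRPL27 (-0.59, limma adjusted p = 5.42e-05) and MRPS27 (0.37, limma adjusted p = 5.47e-05). MRPL37 rose in SK-N-BE(2) and fell by 0.17 in SH-SY5Y, where knockdown libraries held 15.0, 15.0 and 15.7 FPKM and controls 17.9, 17.7 and 16.2. That SH-SY5Y call was lost without control library 1 (-0.14). MRPL45, which ties the ribosome to the inner membrane, fell in SK-N-BE(2) and rose in SH-SY5Y. MRPS9 likewise moved in opposite directions, with 21.4, 20.8 and 19.2 FPKM in SK-N-BE(2) knockdown libraries against 17.9, 15.6 and 17.2 in controls, and 7.19, 7.93 and 8.03 in SH-SY5Y knockdown libraries against 10.1, 9.81 and 10.6 in controls (difference 0.63, limma adjusted p = 0.000316). In all, 5 members fell in both lines (MRPL19, MRPL30, MRPL35, MRPL50 and MRPS34), 3 rose in both (MRPL46, MRPL49 and MRPS35) and 7 were called in opposite directions (MRPL20, MRPL45 and MRPS16 lower in SK-N-BE(2), MRPL21, MRPL22, MRPL37 and MRPS9 higher). The 5 shared falls are 18.5% of the falls in SK-N-BE(2) and 25% of those in SH-SY5Y, against 37.3% and 35.6% over all genes. The 3 shared rises are 27.3% and 21.4% of the rises, against 36.3% and 37.9%. Members lower in SK-N-BE(2) and higher in SH-SY5Y are 11.1% of those falls and 21.4% of those rises, against 23.0% and 24.7%. Members called the other way are 36.4% of the rises in SK-N-BE(2) and 20% of the falls in SH-SY5Y, against 27.9% and 25.8%. Of the 5 shared falls, MRPL50 and MRPS34 kept both calls under every alternative and left-out library tried. Of the 7 opposite calls none kept both. For MRPS34 the difference between lines was -0.17 (SE 0.14, limma adjusted p = 0.310).

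**Figure D3:**
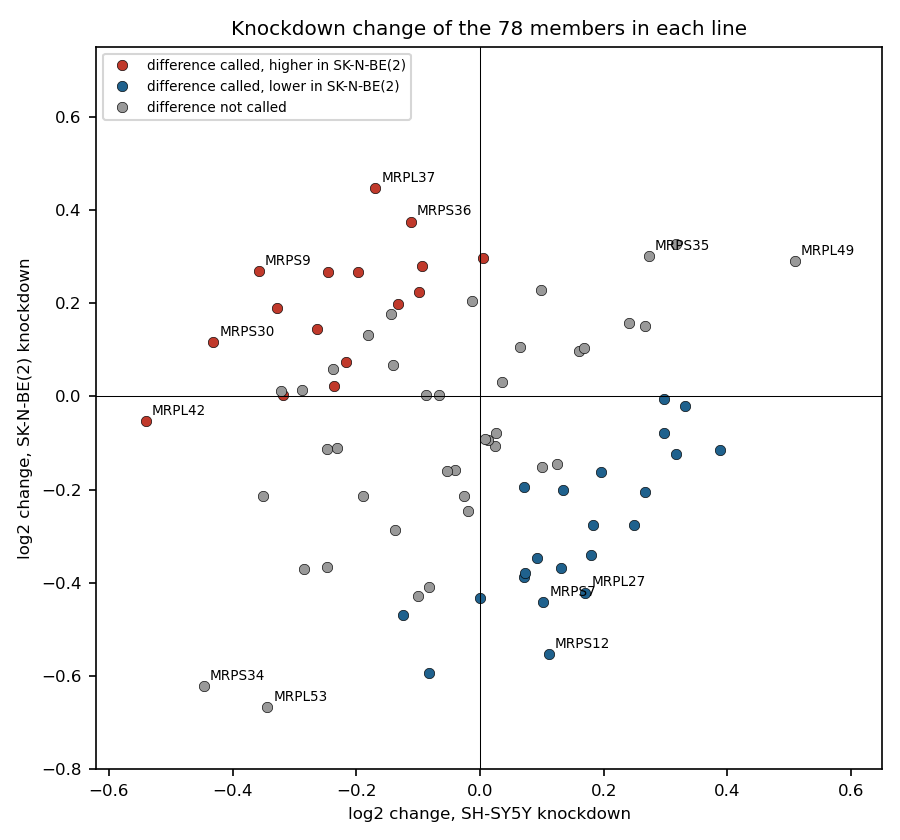
Each member's log2 change on knockdown in SK-N-BE(2) (y axis) against that in SH-SY5Y (x axis), coloured by whether the difference between lines was called. MRPS34 lies low on both axes (-0.62 and -0.45), and MRPL37, MRPS9 and MRPL42 lie apart from the diagonal.

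Overexpression in SK-N-BE(2), where NDUFS6 itself was only modestly higher, gave 20 members higher and 3 lower (25.6% and 3.85% of members), where 12.9% of all tested genes rose, 16.8% fell and 29.7% were called in either direction. Of the 78, 71 had a positive change, with a median of 0.16 on the log2 scale, against -0.01 over all genes. In the large subunit 10 rose and 2 fell and in the small subunit 10 rose and 1 fell. Overexpressing libraries lay wholly above controls for 18 members (15.7% of all genes) and wholly below for 3 (18.1%). Of the 71 members averaging at least 5 FPKM, 25 rose and 3 fell, against 19.5% and 24.8% of all genes at that level.

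MRPL21 held 13.9, 17.5 and 16.5 FPKM in SK-N-BE(2) overexpressing libraries and 12.0, 12.5 and 12.2 in controls. The groups did not overlap, and the log2 change was 0.35 (SE 0.08, limma adjusted p = 0.00266). MRPS27 held 16.1, 17.4 and 16.8 FPKM in overexpressing libraries and 13.1, 14.3 and 13.6 in controls, also apart (log2 change 0.27, SE 0.05, limma adjusted p = 0.000228). These 2 members kept their call under every alternative and left-out library tried. MRPS24 rose by 0.43, MRPS31 by 0.35, MRPL1, MRPS2 and MRPS21 by 0.34 each, MRPS6 by 0.32, MRPL37 and MRPL45 by 0.30 each, MRPS18B by 0.28, and MRPL13 and MRPL24 by 0.25 each; MRPS25 fell by 0.24 and MRPL35 by 0.22. MRPS34 rose by 0.31 and MRPS7 by 0.23. MRPL58 rose by 0.46 with overlapping groups (13.3, 18.0 and 14.2 FPKM in overexpressing libraries, 9.55, 13.5 and 9.27 in controls). MRPL10 had a log2 change of 0.23 and MRPL11 of 0.13, neither called, while MRPL12 rose by 0.33.

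This count moved in either direction with the library left out. Without overexpressing library 1, 46 members rose and 3 fell (17.3% and 21.6% of all genes). Without overexpressing library 2, 10 rose and 1 fell (7.92% and 9.4%), MRPL13 (0.19), MRPL24 (0.19), MRPS2 (0.28), MRPS6 (0.21), MRPS25 (-0.23) and MRPL12 (0.21) being among those lost. Without control library 3, 14 rose and 1 fell (8.69% and 10.7%). With only the groups compared in the fit, 6 members rose and 0 fell (4.66% and 4.49%). The cytosolic ribosomal proteins, which build the ribosome of the cytoplasm, moved too: 76 of 85 rose, with a median of 0.31. Overexpressing libraries lay wholly above controls for only 24 of the 85 (15.7% of all genes). Over 12329 genes the log2 change had a Spearman correlation of -0.43 with transcript length, -0.34 with coding length and 0.33 with GC content. Over the members these were -0.29, 0.04 and 0.20 (n = 78). Member transcripts had a median length of 1248 bases, against 2833 for all tested genes. Stromal markers (6 of 6 at 1 FPKM or more in both) summed to 195 to 215 FPKM in overexpressing libraries and 167 to 175 in controls, and MYCN averaged 1225 ± 58.3 FPKM in overexpressing cells and 924 ± 39.0 in controls. The part of length, of GC content, of these markers, of MYCN and of the spread between these libraries in the members' rise was not tested. Against the other SK-N-BE(2) empty vector 24 members rose (20.3% of all genes) and 2 fell (20% of all genes), but MRPS24 was then at 0.11, MRPS31 at 0.04, MRPL1 and MRPL45 at 0.14 each, MRPS6 at 0.09, MRPL58 at 0.07, MRPL12 and MRPS34 at 0.04 each, MRPL27 at 0.02, MRPL43 at 0.10, MRPS7 at -0.06, MRPL13 at 0.15, MRPL24 at 0.18 and MRPS2 at 0.24, none of them called, and MRPS25 was at 0.19.

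Overexpression in SH-SY5Y gave 17 members higher and 0 lower by limma, where 15.4% of all tested genes rose, 17.2% fell and 32.6% were called in either direction. Of the 71 members averaging at least 5 FPKM, 18 rose and 0 fell, against 23.6% and 16.3% of all genes at that level. In all, 64 of 78 changes were positive, with a median of 0.11 against -0.01 over all genes. Overexpressing libraries lay wholly above controls for 32 members (23% of all genes) and wholly below for 2 (25.2%). The rises stood in 13 of 49 large subunit and 4 of 29 small subunit members. Here the cytosolic ribosomal proteins had a median of -0.03, with 1 of 85 higher and 1 lower. MRPL54 (chr19:3762664-3768575), a mitochondria-specific large subunit protein, held 17.4, 17.1 and 17.6 FPKM in overexpressing libraries and 9.94, 10.3 and 9.66 in controls. The groups lay far apart, at 1.74 times the control mean, and the log2 change of 0.75 (SE 0.08, limma adjusted p = 7.54e-07) was the largest of any member in the 4 construct comparisons. In SK-N-BE(2) overexpressing libraries it held 10.2, 12.7 and 12.6 FPKM, against 9.21, 11.6 and 10.3 in controls (log2 change 0.17, limma adjusted p = 0.112), and in neither knockdown was it called.

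MRPS18B held 22.9, 22.8 and 24.7 FPKM in SH-SY5Y overexpressing libraries and 18.0, 17.4 and 19.9 in controls, all higher (log2 change 0.33, SE 0.07, limma adjusted p = 0.000662). MRPL15 held 18.1, 17.3 and 20.7 FPKM and controls 13.3, 13.7 and 15.2, without overlap (log2 change 0.38, SE 0.08, limma adjusted p = 0.000912). MRPL20, a protein that joins early in assembly, rose by 0.32, MRPL17 by 0.31, MRPL4 by 0.29, MRPL3 and MRPL48 by 0.28 each, MRPL50 by 0.26, MRPL27 by 0.25, MRPS7 and MRPS35 by 0.24 each and MRPS10 by 0.16. MRPL3, MRPL15, MRPL17, MRPL20, MRPL27, MRPL50, MRPL54 and MRPS18B kept their call under every alternative and left-out library tried. MRPL4 (0.23 without overexpressing library 3), MRPL48 (0.22 without overexpressing library 1), MRPS7 (0.21 without overexpressing library 3), MRPS35 (0.21 without control library 1, and 0.15 against the other empty vector) and MRPS10 (0.15 without control library 2) did not. Without overexpressing library 3, which had the highest summed level, 9 members rose (12.8% of all genes). Without control library 1, 2 or 3, 11 rose each time (12.3%, 12.7% and 13.2% of all genes). Against the other SH-SY5Y empty vector 42 rose (26.5% of all genes) and 5 fell (28.9% of all genes).

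**Figure D4:**
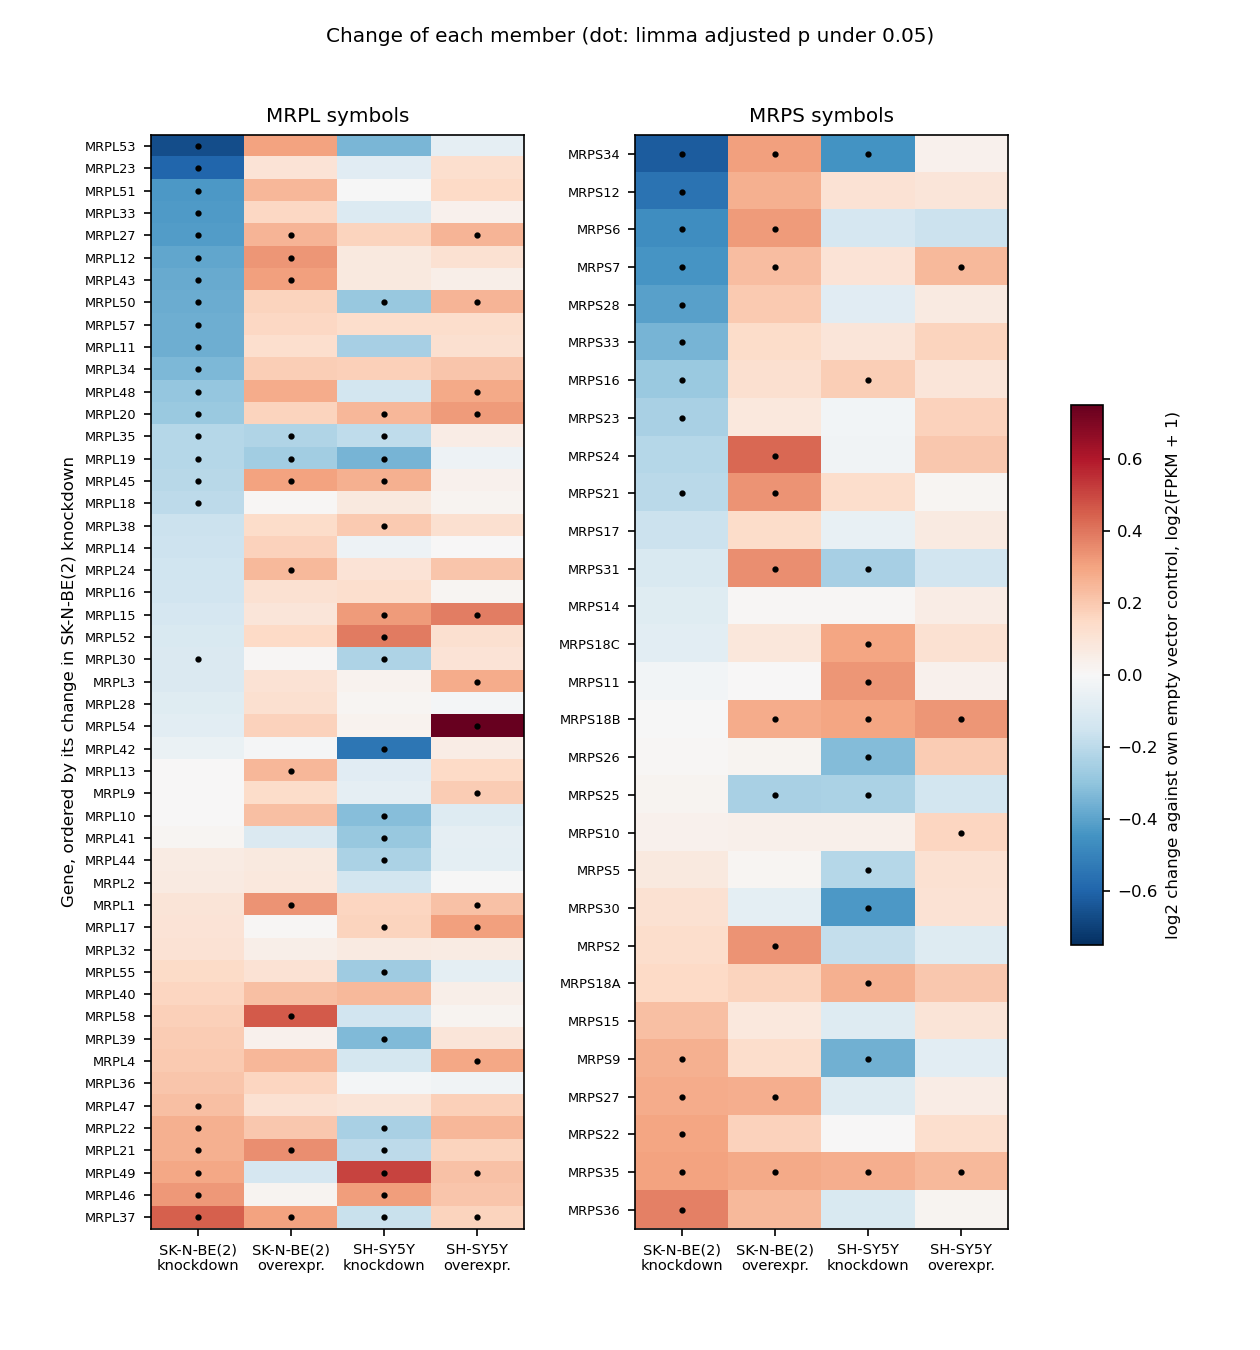
Log2 change (colour) of each of the 49 MRPL genes (left) and 29 MRPS genes (right) against its own empty vector control in the 4 construct comparisons (columns), with a dot where limma's adjusted p was under 0.05. Genes are ordered by their change in SK-N-BE(2) knockdown; falls gather in that column at the top, and the overexpression columns are mostly red.

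The overexpression change differed between lines for 10 members, 6 higher and 4 lower in SK-N-BE(2) (18.3% and 18.5% of all genes, 36.8% in either direction). With equal library sums it was higher for 5 members and lower for 8 (14.9% and 24.2% of all genes). Without SK-N-BE(2) overexpressing library 1 it differed for 20, with 16 higher and 4 lower (20.6% and 21.9% of all genes). MRPL54 (-0.57, limma adjusted p = 0.000581), MRPS31 (0.49, limma adjusted p = 0.00353), MRPL35 (-0.28, limma adjusted p = 0.00382), MRPS6 (0.48, limma adjusted p = 0.00548) and MRPL49 (-0.34, limma adjusted p = 0.00835) had the smallest p. Across lines, MRPL1, MRPL27, MRPL37, MRPS7, MRPS18B and MRPS35 rose in both overexpressions, which is 30.0% of the 20 rises in SK-N-BE(2) and 35.3% of the 17 in SH-SY5Y, against 10.7% and 8.96% over all genes. None of these 6 kept both calls under every alternative and left-out library tried: against the other vector MRPL1, MRPL27 and MRPS7 lost their SK-N-BE(2) call, and the SH-SY5Y calls of MRPL1 (0.16 without control library 2) and MRPL37 (0.11 without overexpressing library 3) were lost on leaving out 1 library.

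Knockdown and overexpression had separate controls, so their calls within a line share no libraries. In SK-N-BE(2), 8 members fell on knockdown and rose on overexpression (MRPL12, MRPL27, MRPL43, MRPL45, MRPS6, MRPS7, MRPS21 and MRPS34). They are 29.6% of the falls and 40.0% of the rises, against 15.6% and 34.2% over all genes. MRPS34 held 35.6, 46.2 and 42.8 FPKM in overexpressing libraries and 31.9, 36.0 and 31.9 in controls, with overlap, and its rise (0.31) was lost without overexpressing library 2 (0.23). Without that library MRPL12, MRPL27, MRPL43, MRPS6 and MRPS7 lost their rise as well. Against the other SK-N-BE(2) empty vector 7 of the 8 rises were lost, with MRPL12 and MRPS34 at 0.04 each, MRPL27 at 0.02, MRPL43 at 0.10, MRPL45 at 0.14, MRPS6 at 0.09 and MRPS7 at -0.06. The fall of the eighth, MRPS21, was lost without any 1 of 4 libraries (-0.12 without knockdown library 1), so none of the 8 kept both calls. In the same line MRPL21, MRPL37, MRPS27 and MRPS35 rose with both constructs, and MRPL19 and MRPL35 fell with both. The shared rises were 36.4% of the knockdown rises and 20% of the overexpression rises, against 13.9% and 29.7% over all genes. The shared falls were 7.41% of the knockdown falls and 66.7% of the 3 overexpression falls, against 20.8% and 35.1%. Of these 6 members only MRPS27 kept both calls under every alternative and left-out library tried. In SH-SY5Y MRPL37 and MRPL50 fell on knockdown and rose on overexpression. They are 10% of the falls and 11.8% of the rises, against 11.5% and 22.2% over all genes. MRPL15, MRPL17, MRPL20, MRPL49, MRPS18B and MRPS35 rose with both constructs. These 6 are 42.9% of the knockdown rises and 35.3% of the overexpression rises, against 27.4% and 47.0% over all genes. MRPL50 and MRPS18B kept both of their calls under every alternative and left-out library tried. Against the other empty vector MRPL15 (-0.06) and MRPL20 (-0.17) did not rise on knockdown, and leaving out 1 library ended the knockdown call of MRPL17 (0.13 without knockdown library 2) and the overexpression call of MRPL49 (0.18 without overexpressing library 3). MRPS35, a small subunit protein, was the one member higher in all 4 comparisons, with 38.2, 38.1 and 35.1 FPKM in SK-N-BE(2) knockdown libraries against 28.4, 29.7 and 31.8 in controls, and 22.4, 19.1 and 20.3 in SH-SY5Y knockdown libraries against 17.6, 16.2 and 16.8 in controls. Its log2 changes lay between 0.24 and 0.30, but against the other empty vector it was called in 2 of the 4, being at 0.16 in SK-N-BE(2) knockdown and 0.15 in SH-SY5Y overexpression. MRPL2, MRPL14, MRPL16, MRPL28, MRPL32, MRPL36, MRPL40, MRPS14, MRPS15 and MRPS17 were called in none of the 4. The share of all tested genes called in none was not taken.

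**Figure D5:**
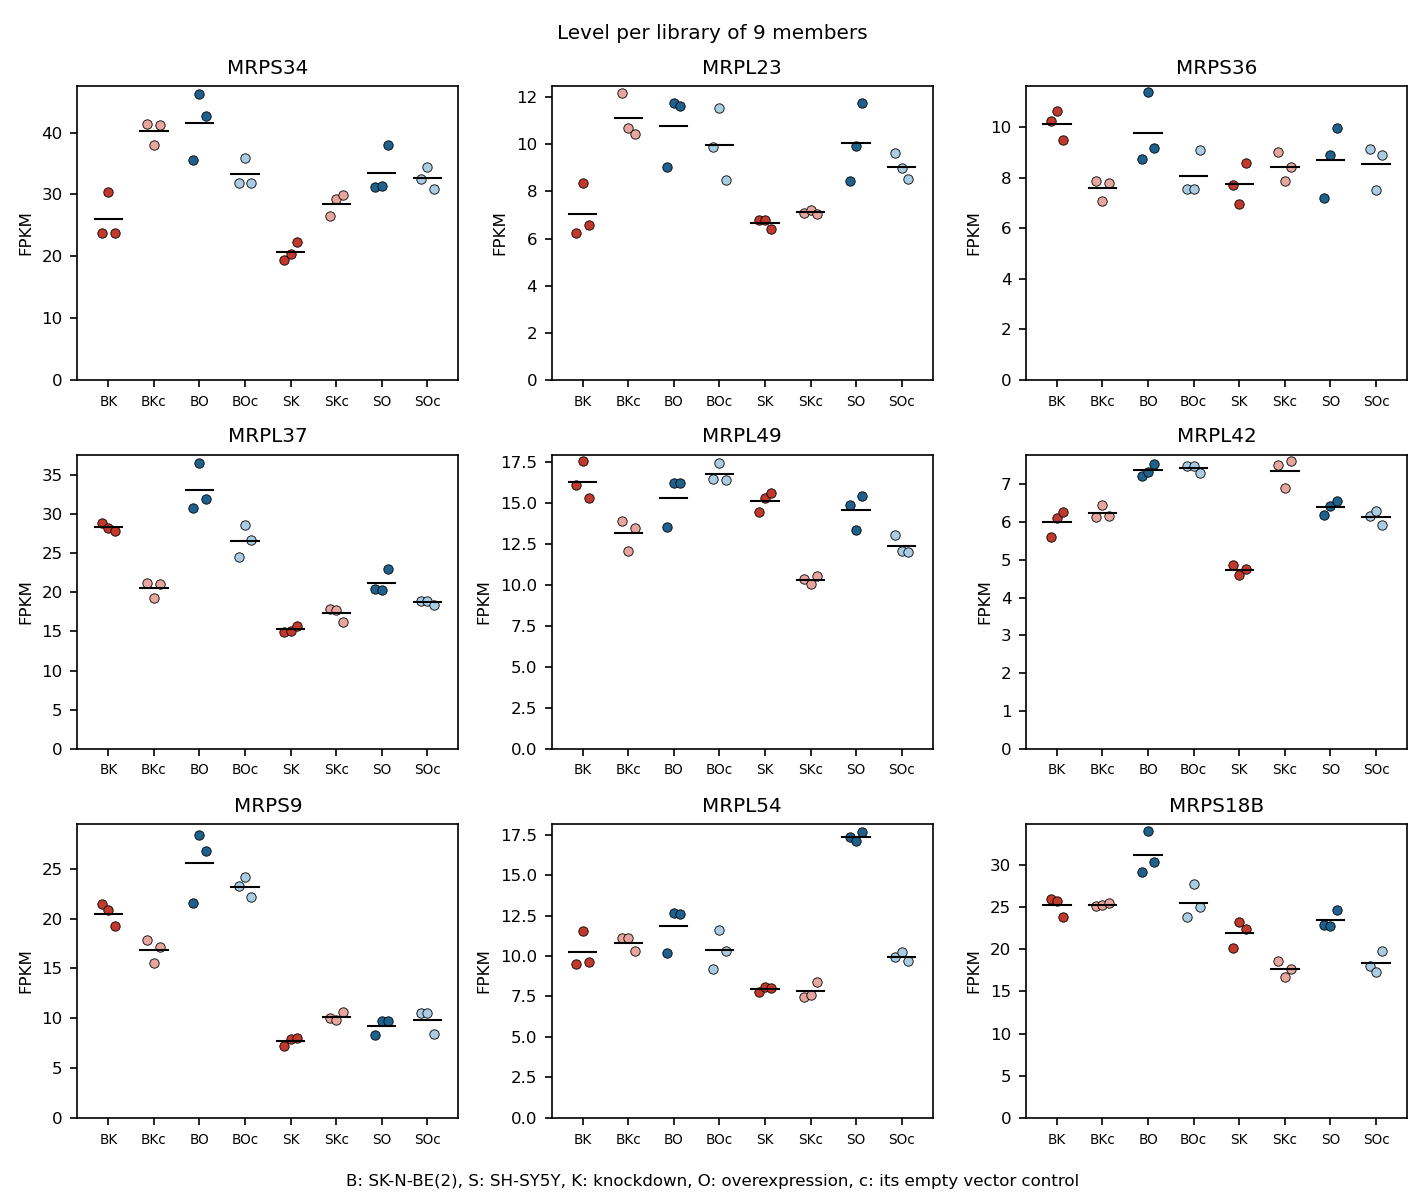
FPKM per library (y axis) of 9 members in the 8 groups (x axis: B SK-N-BE(2), S SH-SY5Y, K knockdown, O overexpression, c empty vector control), with points for libraries and a line for each mean. MRPS34 is lower in both knockdowns than in their controls, and MRPL54 is raised in SH-SY5Y overexpressing cells, at 17.1 to 17.6 FPKM.

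The empty vectors set a scale for these changes. In SK-N-BE(2) the knockdown vector differed from the overexpression vector in 20 members, 10 higher and 10 lower (15.5% and 19% of all genes, 34.5% in either direction). The log2 differences ran from -0.44 for MRPS9 to 0.39 for MRPL58. With equal library sums 3 members were higher and 19 lower (9.68% and 29.2% of all genes). In SH-SY5Y the knockdown vector differed in 24 members, 5 higher and 19 lower (18.4% and 17.8% of all genes, 36.2% in either direction). MRPL20 (-0.42), MRPL15 (-0.37), MRPL3 (-0.36) and MRPL54 (-0.31) were among those lower. MRPL54 in SH-SY5Y overexpressing cells was higher than with either vector (0.75 and 1.06), and MRPS34 in knockdown cells lower than with either vector of its line (-0.62 and -0.35 in SK-N-BE(2), -0.45 and -0.63 in SH-SY5Y). Its higher level in SK-N-BE(2) overexpressing cells was not called against the other vector (0.04, limma adjusted p = 0.817).

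Between lines, with both empty vectors of each line averaged, 40 members were higher and 17 lower in SK-N-BE(2) than in SH-SY5Y (33.5% and 43.8% of all genes, 77.3% in either direction), and 4 differed by more than 1 on the log2 scale. MRPS26, a mitochondria-specific small subunit protein, averaged 10.1 ± 0.940 FPKM with the knockdown vector and 10.7 ± 0.876 with the overexpression vector in SK-N-BE(2), against 27.7 ± 1.61 and 31.1 ± 3.005 in SH-SY5Y (log2 difference -1.41, SE 0.07, limma adjusted p = 4.26e-13). MRPL15 averaged 30.9 ± 1.06 and 31.6 ± 1.44 FPKM in SK-N-BE(2), against 10.6 ± 0.404 and 14.1 ± 1.04 in SH-SY5Y (log2 difference 1.29, SE 0.06, limma adjusted p = 2.25e-14). MRPL11 (1.13), MRPL45 (1.06), MRPS9 (0.92) and MRPS35 (0.91) were also higher in SK-N-BE(2), and MRPL58 (-0.61), MRPL53 (-0.56), MRPL10 (-0.51) and MRPS6 (-0.44) lower. The stalk thus held members on both sides, MRPL11 higher and MRPL10 and MRPL12 (-0.36) lower in SK-N-BE(2).

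Partners of the mitochondrial ribosome were read from lists. Its own RNAs, MT-RNR1 of the small and MT-RNR2 of the large subunit, fell in both knockdowns: MT-RNR1 averaged 597 ± 32.4 FPKM in SK-N-BE(2) knockdown cells and 812 ± 11.2 in controls, and 570.2 ± 25.8 in SH-SY5Y knockdown cells and 935 ± 21.5 in controls (log2 changes -0.45 and -0.71), and MT-RNR2 changed by -0.21 and -0.68. Against the other empty vector MT-RNR1 and MT-RNR2 were higher in SK-N-BE(2) (0.61 and 0.55) and changed by -0.40 and -0.13 in SH-SY5Y. In SK-N-BE(2) knockdown, 12 of the 13 messages from mitochondrial DNA fell (median -0.49), and in SH-SY5Y knockdown 12 of 13 rose (median 0.55). Against the other empty vector, 5 of the 13 fell and 1 rose in SK-N-BE(2) (median -0.09), and 13 of 13 rose in SH-SY5Y (median 0.48). Among 5 further ribosomal proteins with other symbols, PTCD3, a pentatricopeptide repeat protein of the small subunit, fell in both knockdowns (-0.37 and -0.40), and DAP3, a small subunit protein that binds GTP, rose in SK-N-BE(2) (0.46) and changed by -0.04 in SH-SY5Y, which was not called.

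Of 30 assembly and RNA modification factors, 9 fell and 4 rose in SK-N-BE(2) knockdown, where 28.3% of all genes fell and 27.4% rose; the methyltransferase MRM1 had the largest fall (-1.13) and MPV17L2, a large subunit assembly factor of the inner membrane, the largest rise (0.79). In SH-SY5Y knockdown 4 of the 30 fell and 11 rose (29.6% and 26.3% of all genes), with MTG1 (0.70) and MTG2 (0.42), GTPases of large subunit assembly, higher and the small subunit RNA methyltransferase TFB1M (-0.64) lower. In SK-N-BE(2) overexpressing cells 4 of these 30 rose and 3 fell (12.9% and 16.8% of all genes). In SH-SY5Y overexpressing cells 11 rose and 2 fell (15.4% and 17.2% of all genes), with RCC1L, a large subunit assembly factor, at 0.56 and MTERF3 at 0.48. Of 17 mitochondrial aminoacyl-tRNA synthetases, which charge the organelle's tRNAs, 9 fell and 3 rose in SK-N-BE(2) knockdown, 6 fell and 5 rose in SH-SY5Y knockdown, 1 rose and 1 fell in SK-N-BE(2) overexpressing cells and 9 rose and 1 fell in SH-SY5Y overexpressing cells, against the same shares of all genes. The elongation factor TUFM had log2 changes of 0.01 and -0.17 on knockdown, neither called, and rose by 0.36 in SK-N-BE(2) overexpressing cells. TFAM, which packages mitochondrial DNA, fell by 0.15 and 0.26 in the knockdowns and by 0.26 in SK-N-BE(2) overexpressing cells, and rose by 0.30 in SH-SY5Y overexpressing cells. TFAM stood at 0.03 against the other vector in SK-N-BE(2) knockdown cells, MRM1 at -0.45, and MTG1 at 0.15 in SH-SY5Y knockdown cells. POLRMT, the mitochondrial RNA polymerase, fell by 0.17 in SK-N-BE(2) and 0.30 in SH-SY5Y knockdown cells and was not called on overexpression (0.00 and -0.02).

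Over the 8 group means, members differed in how closely they followed the median of the others of their subunit. Pearson's r on the log2(FPKM + 1) scale, which is a description over groups that share a line, was highest for MRPL4 (0.93), MRPL37 (0.92) and MRPL9 (0.92) in the large subunit and for MRPS34 (0.82), MRPS33 (0.76) and MRPS28 (0.74) in the small. It was lowest for MRPL10 (-0.73), MRPL28 (-0.69) and MRPL41 (-0.51), and for MRPS10 (-0.52), MRPS26 (-0.43) and MRPS25 (-0.21). MRPS34 spanned 0.97 on the log2 scale between its highest and lowest group and MRPS10 0.25.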

How the data were processed

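Bulk RNA of 24 libraries (3 biological replicates in each of 8 groups, per the labels) was read from the FPKM values the authors deposited for 60564 genes. Per the submitters' processing notes, FastQC 0.11.2, STAR, StringTie 1.3.1c and hg38 were used; neither the annotation release nor the counting settings are stated there. The labels' protocols describe TRIzol extraction and strand-specific libraries. FPKM was taken as deposited, with no counts, so depth and counting error are unknown.

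Values were analysed as log2(FPKM + 1), a scale that understates changes of low genes. The 15903 genes reaching 1 FPKM in 3 or more libraries entered limma 3.58.1 (R 4.3.3) with 8 groups, 16 residual degrees of freedom, and trend and robust moderation. Benjamini-Hochberg adjustment ran over all of these genes. NDUFS6 was left out only when shares and medians over all genes were taken. A call is an adjusted p under 0.05, two-sided. All groups share 1 estimate of the spread, and replicates differ as separate samples of stable cell populations. The fit was tested on simulated data. Gene positions and overlaps come from GENCODE release 29, matched to 58457 rows, and promoter windows from RefSeq (GRCh38.p14).

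Members and lists were chosen with earlier results of these data known. In each construct comparison and subunit, the 6 largest called rises and falls without overlap between groups are named, besides members followed throughout for their role. Alternatives were the pseudocount (0.1), filters, scalings, moderation, the groups in the fit, the other empty vector, a replicate block and leaving out each library.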

Additional observations from a re-analysis of the deposited data

Results flagged for a closer look

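The change against the empty vector differed between SK-N-BE(2) and SH-SY5Y by limma's interaction term (adjusted p under 0.05, Benjamini-Hochberg over all tested genes) for 38 members on knockdown and 10 on overexpression. With each library rescaled to the same sum, the knockdown difference was called higher for 32 members and lower for 11 (39.6% and 17.3% of all genes). The overexpression difference was then called higher for 5 and lower for 8 (14.9% and 24.2% of all genes). Each value below is at the deposited scaling and is the log2 change in SK-N-BE(2) minus that in SH-SY5Y. The shares over all tested genes were 55.8% for knockdown and 36.8% for overexpression.

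On knockdown, the difference was positive in the large subunit for MRPL4 (0.33), MRPL10 (0.32), MRPL21 (0.46), MRPL22 (0.51), MRPL37 (0.62), MRPL39 (0.52), MRPL42 (0.49) and MRPL55 (0.41). In the small subunit it was positive for MRPS5 (0.29), MRPS9 (0.63), MRPS15 (0.32), MRPS22 (0.29), MRPS25 (0.26), MRPS27 (0.37), MRPS30 (0.55) and MRPS36 (0.49).

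It was negative in the large subunit for MRPL12 (-0.46), MRPL15 (-0.44), MRPL18 (-0.27), MRPL20 (-0.53), MRPL23 (-0.51), MRPL27 (-0.59), MRPL34 (-0.52), MRPL38 (-0.36), MRPL43 (-0.45), MRPL45 (-0.47), MRPL51 (-0.43), MRPL52 (-0.50) and MRPL57 (-0.50), and in the small subunit for MRPS6 (-0.34), MRPS7 (-0.54), MRPS11 (-0.35), MRPS12 (-0.67), MRPS16 (-0.46), MRPS18B (-0.30), MRPS18C (-0.38), MRPS21 (-0.33) and MRPS33 (-0.44).

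On overexpression, the difference was positive for MRPL45 (0.27), MRPS2 (0.43), MRPS6 (0.48), MRPS21 (0.32), MRPS27 (0.22) and MRPS31 (0.49), and negative for MRPL17 (-0.30), MRPL35 (-0.28), MRPL49 (-0.34) and MRPL54 (-0.57). Leaving out SK-N-BE(2) overexpressing library 1 raised this count of 10 to 20, with 16 higher and 4 lower (20.6% and 21.9% of all genes).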

How the results depend on the processing

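With the other empty vector of the line, knockdown in SK-N-BE(2) called 24 members, 5 of them higher (22.5% of all genes). Knockdown in SH-SY5Y called 7 higher (26.5%), and overexpression in SH-SY5Y 47, with 42 higher and 5 lower (26.5% and 28.9%). Members with a positive change then numbered 26, against 34, in SK-N-BE(2) knockdown and 20, against 36, in SH-SY5Y knockdown. Those that changed sign and were called with either vector were, in SK-N-BE(2) knockdown, MRPL49 (-0.0397), MRPS9 (-0.17) and MRPS25 (-0.41), and in SH-SY5Y knockdown MRPL3 (-0.34), MRPL15 (-0.0582), MRPL18 (-0.34), MRPL20 (-0.17), MRPL38 (-0.0890), MRPL54 (-0.29), MRPL57 (-0.25), MRPS5 (0.0547), MRPS11 (-0.00696) and MRPS16 (-0.0160). In SK-N-BE(2) overexpression these were MRPL42 (0.21), MRPL49 (0.20), MRPS7 (-0.0596) and MRPS25 (0.19), and in SH-SY5Y overexpression MRPL42 (-0.17), MRPS5 (-0.16) and MRPS10 (-0.00258). With equal library sums (TPM), knockdown called 24 higher and 17 lower in SK-N-BE(2) (33.5% and 21.6% of all genes) and 9 higher in SH-SY5Y (20%). SH-SY5Y overexpression then called 27, all higher (18.4% of all genes). Without a filter on low values, SH-SY5Y overexpression called 11, all higher (5.2% of all genes). The SK-N-BE(2) vectors differed in 12, with 4 higher and 8 lower (5.57% and 6.69%). More genes entered the adjustment without that filter. With only the groups compared, SK-N-BE(2) overexpression called 6, all higher and 0 lower (4.66% and 4.49% of all genes), and SH-SY5Y overexpression 1 lower (19%). In SK-N-BE(2) overexpression the higher share of all calls was 43.4%, against 32.2% with equal sums, 54.4% with median-of-ratios scaling and 27.7% scaled without mitochondrial DNA genes; in SH-SY5Y overexpression it was 47.1%, against 59.2% for genes averaging at least 5 FPKM.

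Leaving out 1 library at a time gave 31 to 36 members called in SK-N-BE(2) knockdown (9 to 12 higher, 19 to 27 lower), 24 to 28 in SH-SY5Y knockdown (10 to 12 higher, 13 to 17 lower), 11 to 49 in SK-N-BE(2) overexpression (10 to 46 higher, 1 to 3 lower) and 9 to 15 in SH-SY5Y overexpression, all higher. It gave 32 to 37 for the knockdown difference between lines, 8 to 20 for the overexpression difference, 53 to 58 for the line difference, 13 to 19 for the SK-N-BE(2) vectors and 17 to 21 for the SH-SY5Y vectors. Over all genes, leaving out 1 library gave 25.5% to 26.1% higher and 24.9% to 27.1% lower in SK-N-BE(2) knockdown. These shares were 24.1% to 25% and 27.5% to 28% in SH-SY5Y knockdown, and 7.92% to 17.3% and 9.4% to 21.6% in SK-N-BE(2) overexpression. In SH-SY5Y overexpression 12.3% to 13.2% were higher and 14.3% to 15.5% lower. For the knockdown difference between lines 28% to 28.7% were higher and 24.3% to 26.1% lower. For the overexpression difference these were 16% to 20.6% and 15.7% to 21.9%, and for the line difference 32.5% to 32.9% and 42.9% to 43.3%. The SK-N-BE(2) vectors had 12.7% to 13.5% higher and 16.1% to 16.9% lower. The SH-SY5Y vectors had 15.7% to 16.5% and 14.4% to 15.6%. Except where a value shows it, the cause was not tested.

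Same-numbered libraries did not deviate together in knockdown (correlations from -0.03 to 0.01), and in SK-N-BE(2) overexpression the correlations ranged from -0.08 to 0.37. With 3 libraries a group, whether the numbers pair the samples there cannot be told, and the main fit used no pairing. The replicate block gave 40 members called in SK-N-BE(2) knockdown, 13 higher and 27 lower (27.7% and 28.7% of all genes). In SH-SY5Y knockdown it gave 34, 14 higher and 20 lower (26.6% and 29.9%). In SK-N-BE(2) overexpression it gave 26, 23 higher and 3 lower (13.5% and 17.3%). In SH-SY5Y overexpression it gave 16, all higher (15.5% of all genes, with 17.6% lower).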
